A study of Homo sapiens with 6 samples.

Results

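Expression of 42 genes of the lysosome was examined in NB4 cells that had received Tan I or only its solvent, DMSO. The genes comprised 12 glycosidases, 5 sulfatases, 7 lipid hydrolases and sphingolipid activators, 10 proteases and their partners, 7 genes of the lysosomal membrane and of lipid transfer, and TFEB, a transcription factor of lysosomal genes. They were chosen by name and function, but with earlier measured values of Tan I against DMSO in these same libraries known, so the values below are given as a description and no p-value is given for a single member. Of the 42 genes, 40 had a row in the deposited table of 18625 genes. SGSH and GALC were not analysed here. LGMN stayed below the filter of a mean of 10 normalized counts over the 6 libraries, which left 39 genes that were tested among the 16887 genes of the whole table.

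NB4 is a cell line from a human acute promyelocytic leukemia, a leukemia of granulocyte precursors that carries the PML-RARA fusion. RNA-seq was performed on NB4 cells after 3 days with DMSO, the solvent control, or with 10 µM Tan I (tanshinone I, a diterpene quinone from the root of Salvia miltiorrhiza), with 3 libraries in each group. Both groups were grown in RPMI-1640 medium with fetal bovine serum. The study asked how the compound affects leukemic and normal blood cells, and this comparison gives the transcripts that differed with the compound in 1 cell line. The labels do not say whether the 3 libraries of a group came from separate cultures, so the errors and tests below measure the spread between these libraries.

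Lysosomes are acidic organelles in which hydrolases degrade glycans, lipids and proteins that arrive by endocytosis, phagocytosis and autophagy. Most of the soluble enzymes reach the lysosome through a mannose 6-phosphate tag, a proton pump called the V-ATPase acidifies the lumen, and the loss of a single enzyme causes a storage disease. In the granulocyte lineage, lysosomal hydrolases are also stored in the azurophilic granules, together with myeloperoxidase. Many lysosomal genes carry the CLEAR element, an extended E-box (CACGTG) that is bound by TFEB and its relatives TFE3 and MITF.

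The libraries held 25356503 to 31679138 reads on the listed genes in DMSO and 21502760 to 24298627 in Tan I. In a principal component analysis over the genes tested, the first component took 70.8% of the variance and did not separate the groups: the scores were -48.0, 41.1 and -26.7 for DMSO 1, 2 and 3 and -46.8, 8.65 and 71.6 for Tan I 1, 2 and 3. The label of the cell type was checked against 9 promyelocyte markers, of which 7 had a row, led by MPO at 62588 ± 1950 normalized counts in DMSO (SD, n = 3). Their summed level was 74470 to 81142 in DMSO and 44828 to 53152 in Tan I and did not overlap between the groups. MPO made up most of this sum, at 60389 to 64107 in DMSO and 33279 to 39450 in Tan I. Of the 7 markers 6 were lower and 1 higher. MPO, CTSG and MYB lay wholly lower in Tan I, as did 3.97% of all genes tested. These 3 were also called lower by limma, as were 1.10% of all genes. The call needed an unadjusted p of at most 0.05 and a log2 fold change of at least 0.25 in either direction. With adjusted p-values 0 of the 7 were called. AZU1, PRTN3 and CEBPE overlapped at log2 fold changes of -0.25, -0.32 and -0.12, and CD33 at 0.07. The summed levels of macrophage markers (3 of 8 with a row) were 31.7 to 39.5 in DMSO and 36.9 to 55.7 in Tan I, those of erythroid markers (2 of 6) were 64.9 to 89.6 and 46.7 to 71.3, those of lymphoid markers (5 of 6) 811 to 1168 and 831 to 1440, and those of megakaryocyte markers (2 of 5) 1263 to 1474 and 1478 to 1734. The 2 megakaryocyte markers went opposite ways, at log2 fold changes of 0.35 for ITGA2B and -0.74 for GP1BA. The part of these markers in the values of the lysosomal genes was not tested.

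FUCA1, a glycosidase that removes fucose from glycoproteins and glycolipids, was the 1 lysosomal gene that stood apart between the groups, at 2.93 times the DMSO level in Tan I. The other 38 tested genes overlapped between the groups, and their log2 fold changes ran from -0.49 (IDS) to 0.30 (NEU1). Fold changes are differences of the mean log2(normalized count + 1), Tan I minus DMSO, fitted by limma across all genes tested. Of the 39 genes, 25 were higher and 14 lower in Tan I at a median of 0.04 on the log2 scale, which turned to 17 higher and 22 lower at a median of -0.01 when each library was rescaled to the same total. Over all genes tested, 49.7% were higher and the median was -0.00, which the same rescaling moved to -0.06. Only FUCA1, NEU1 and IDS reached a log2 fold change of 0.25 in either direction. In these bulk libraries a change in the share of cells of one kind and a change in RNA per cell cannot be told apart.

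At an unadjusted p of at most 0.05 together with a log2 fold change of at least 0.25 in either direction, 1 of the 39 lysosomal genes was called higher (FUCA1) and 0 lower. Over all genes tested this rule called 2.42%, with 1.32% higher and 1.10% lower in Tan I, so the count of lysosomal genes was near the background. Without Tan I 1 the rule called 5 of the 39 lysosomal genes (FUCA1, FUCA2, GLA, IDS and SCARB2) and 1496 genes in all, 8.86% of those tested. Without Tan I 2 it called 1 and 160. With p-values adjusted over all genes by limma, 0 lysosomal genes and 0% of all genes were called, where 410 genes had an unadjusted p of at most 0.05, and edgeR on the recovered reads also called 0, while DESeq2 called 16 genes, of which 1 was lysosomal (FUCA1). FUCA1 was also the only lysosomal gene whose 3 Tan I libraries all lay above the 3 DMSO libraries, and none lay wholly below, against 3.92% and 3.97% of all genes. Because the genes were chosen with this contrast known, nothing is read from these counts.

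**Figure D1:**
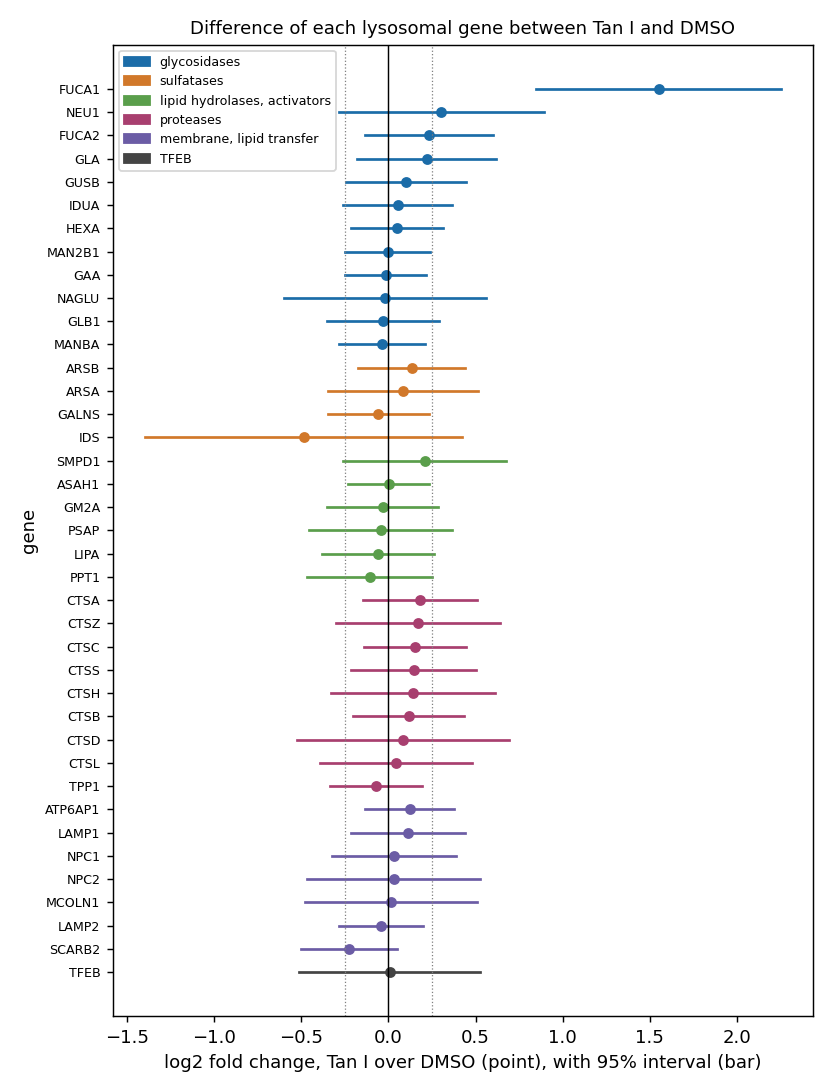
Log2 fold change, Tan I minus DMSO (points, horizontal axis) with its 95% interval (bars) for the 39 tested lysosomal genes, coloured by role, with dotted lines at -0.25 and 0.25. FUCA1 lies apart at 1.55, and the points of the other 38 genes lie between -0.49 and 0.30.

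The intervals tell how large a difference these libraries leave room for. The standard error of the log2 fold change was 0.15 at the median over the 39 genes, lowest at 0.099 for ASAH1 and highest at 0.39 for IDS. In these errors limma draws the variance of each gene towards that of genes with a similar mean. They are therefore not the spread of a single gene alone. The 95% interval lay inside -1 to 1 for 37 genes, all but FUCA1 and IDS, and inside -0.5 to 0.5 for 22 genes. Differences smaller than these intervals were not detectable with these libraries, and the overlap of the libraries does not show that the levels were equal. When each library was left out in turn, the direction of the difference turned at least once for 20 of the 39 genes and was kept for 19, FUCA1 among them.

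FUCA1 (ENSG00000179163, GRCh38 chr1:23845077-23868290, minus strand, 8 exons) had normalized counts of 25.2, 34.7 and 20.3 in DMSO 1, 2 and 3. In Tan I 1, 2 and 3 they were 66.5, 70.6 and 103. Every Tan I library was thus above every DMSO library. The mean was 26.7 ± 7.30 with DMSO alone and 79.9 ± 19.8 with the compound (SD, n = 3), and the difference was a log2 fold change of 1.55 ± 0.30 (SE) and a 95% interval of 0.85 to 2.25. These values rest on few reads, 27, 36 and 26 in DMSO and 68, 67 and 77 in Tan I, 89 and 212 in all. The same libraries had summed promyelocyte markers lower in Tan I without overlap, a sum made up mostly of MPO. Singly, 3 of the 7 markers lay wholly lower, beside 3.97% of all genes, and their part in the value of FUCA1 was not tested. FUCA1 overlaps no other annotated gene, but 1 processed pseudogene, FUCA1P1, is annotated on chromosome 2. Reads that mapped to several places were removed by the authors, so the level of FUCA1 is uncertain. The bases before its start carry no E-box, as the sequence shows (RefSeq, GRCh38.p14, chr1:23868291-23868540, minus strand, read 5′ to 3′ towards the start, with no capitals because CACGTG does not occur):
FUCA1: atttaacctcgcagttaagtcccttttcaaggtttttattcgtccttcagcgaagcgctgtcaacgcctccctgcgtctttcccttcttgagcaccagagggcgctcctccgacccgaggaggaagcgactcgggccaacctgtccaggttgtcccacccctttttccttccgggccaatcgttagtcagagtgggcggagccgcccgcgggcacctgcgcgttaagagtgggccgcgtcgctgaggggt

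FUCA1 was among the lowest of the lysosomal genes in NB4 cells. Its level per kb of canonical transcript was 13.1 normalized counts with DMSO alone, where IDS had 13.3, and 39.1 with Tan I. Over the 6 libraries FUCA1 was at 26.1, rank 38 of the 40 genes, and only IDS and LGMN were lower. Its relative FUCA2, a secreted fucosidase, is shown for comparison and was chosen after its values were seen. FUCA2 had 760 normalized counts per kb over the 6 libraries, far above FUCA1 on the same scale. The normalized counts of FUCA2 were 1512, 1842 and 1631 in DMSO and 1600, 2046 and 2248 in Tan I, which overlapped, with a log2 fold change of 0.23 ± 0.16 (SE).

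**Figure D2:**
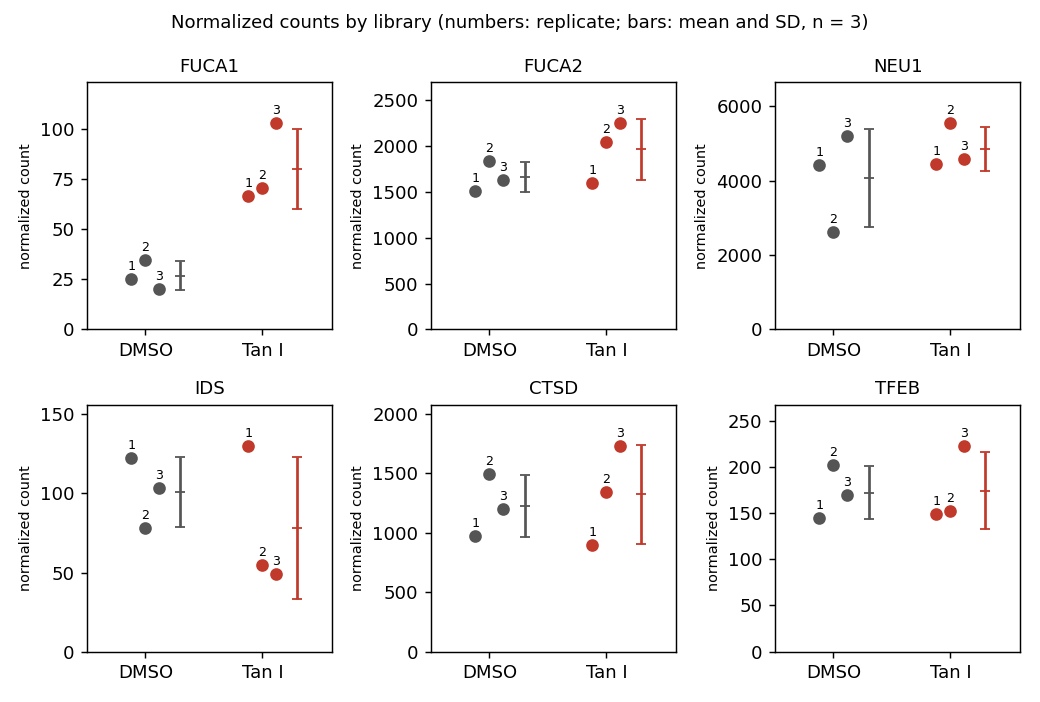
Normalized counts (vertical axes, from 0) of 6 genes in each library, numbered by replicate, with the mean and SD of each group (n = 3). FUCA1 alone has all Tan I points above all DMSO points, NEU1 has a low DMSO 2, IDS has low Tan I 2 and 3, and CTSD and TFEB are highest in DMSO 2 and Tan I 3.

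TFEB, which drives transcription of many lysosomal genes when it enters the nucleus, had normalized counts of 145, 202 and 170 in DMSO and 149, 152 and 223 in Tan I. The groups overlapped, with DMSO 2 and Tan I 3 highest, and the log2 fold change was 0.01 with a 95% interval of -0.51 to 0.53. It was -0.18 without Tan I 3 and 0.13 without DMSO 2. Its relative TFE3, named after its values were seen, had normalized counts of 1417, 1411 and 1548 in DMSO and 1574, 1699 and 1766 in Tan I. The TFE3 libraries did not overlap, as for 3.92% of all genes on the higher side, but the log2 fold change of 0.20 ± 0.11 (SE) was not called, with an adjusted p = 0.999 in limma. The RNA level does not report where the TFEB protein is, which is the step at which it is mainly controlled. As a description of sequence, the promoters of the lysosomal genes were searched for the letters TFEB binds. The values of the genes that carry them are given beside the sequences, and neither reports the activity of the protein.

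RefSeq promoter windows, 250 bases before to 50 bases after the start, were found for 31 of the 42 genes. The E-box CACGTG, which reads the same on both strands, stood in 8 of the 31 windows (25.8%) and in 8.77% of the windows of 27305 genes. All 8 also held TCACGTG or CACGTGA, found in 4.49% of all windows. The palindrome TCACGTGA stood in 5 windows (16.1% against 1.18% of all), and the 10-letter core of the CLEAR element, which is this palindrome with a G before and a C after it, in 3 (9.68% against 0.421%), namely those of GAA, GALNS and MCOLN1. Each longer motif contains the shorter ones. The 5 genes with TCACGTGA are shown because they hold the motif most fully, with 15 bases on either side of the outermost E-boxes and each CACGTG in capitals (RefSeq, GRCh38.p14, 5′ to 3′ on the strand of the gene):
CTSA (chr20:45891278-45891330, plus strand): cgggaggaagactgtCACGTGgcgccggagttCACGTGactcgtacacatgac
GAA (chr17:80101490-80101570, plus strand): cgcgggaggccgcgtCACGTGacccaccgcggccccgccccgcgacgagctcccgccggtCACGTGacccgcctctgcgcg
GALNS (chr16:88856959-88857136, minus strand): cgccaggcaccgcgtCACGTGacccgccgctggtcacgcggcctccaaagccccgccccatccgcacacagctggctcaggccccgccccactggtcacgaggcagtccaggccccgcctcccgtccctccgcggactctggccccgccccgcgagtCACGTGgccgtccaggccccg
LAMP1 (chr13:113297032-113297258, plus strand): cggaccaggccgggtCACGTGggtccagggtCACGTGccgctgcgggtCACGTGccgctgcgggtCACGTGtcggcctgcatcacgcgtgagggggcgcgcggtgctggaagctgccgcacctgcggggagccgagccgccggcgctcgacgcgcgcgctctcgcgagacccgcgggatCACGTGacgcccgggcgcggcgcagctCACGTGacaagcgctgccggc
MCOLN1 (chr19:7522568-7522630, plus strand): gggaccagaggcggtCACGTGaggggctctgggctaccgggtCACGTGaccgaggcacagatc

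CTSA, GAA, GALNS and MCOLN1 each hold 2 E-boxes in this window, and LAMP1 holds 6. The log2 fold changes of these 5 genes were 0.18 for CTSA, 0.11 for LAMP1, 0.01 for MCOLN1, -0.02 for GAA and -0.06 for GALNS, and the libraries of each overlapped between the groups. The other 3 genes with an E-box were ARSB, CTSD and NEU1, at 0.13, 0.08 and 0.30. FUCA1, the 1 gene that stood apart, holds none in this window, and only 8 of the 31 windows hold one. A match of letters is a description of the sequence and was not tested as a binding site.

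The levels of the lysosomal genes spanned a wide range in NB4 cells. PSAP, the precursor of the saposins that help lipid hydrolases reach their substrates, was the highest at 7562 normalized counts per kb of canonical transcript, the mean of the 6 libraries. The aminopeptidase CTSH followed at 3392, the dipeptidyl peptidase CTSC, which activates granule serine proteases, at 3129, and the V-ATPase accessory subunit ATP6AP1 at 2248. GUSB, PPT1, LAMP1 and MAN2B1 followed between 1834 and 2078 per kb. At the lower end, ARSB, NAGLU, ARSA and TFEB lay between 74.3 and 93.2 per kb, FUCA1 at 26.1, IDS at 11.8 and LGMN at 4.21. LGMN, the asparaginyl endopeptidase, had 9, 5 and 10 reads in DMSO and 12, 5 and 9 in Tan I. Neighbours in this order, such as NPC1 and MCOLN1 at 179.1 and 179.5 per kb, can lie closer than the libraries of 1 gene, since the highest library exceeded the lowest by a factor of 1.23 within DMSO and 1.30 within Tan I at the median over the lysosomal genes.

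**Figure D3:**
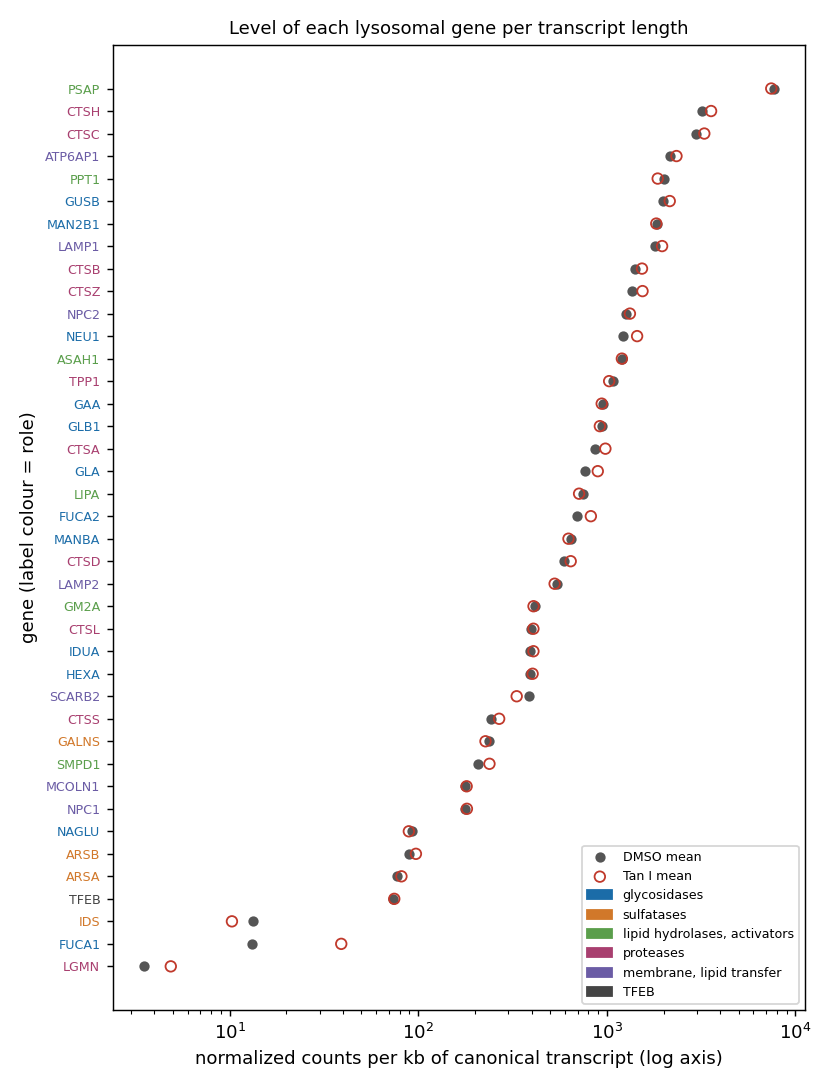
Mean normalized counts per kb of canonical transcript (horizontal log axis) of the 40 lysosomal genes with a row, in DMSO (filled) and Tan I (open), with the gene names coloured by role. PSAP is highest and LGMN lowest, and the pair of points for FUCA1 is the widest.

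The glycosidases trim sugars from glycoproteins, glycolipids and glycosaminoglycans. Beside FUCA1, 11 of them were tested, and their log2 fold changes ran from -0.04 (MANBA, a beta-mannosidase) to 0.30 (NEU1, a sialidase). GUSB, the beta-glucuronidase, was the highest of them per kb, and its normalized counts were 4035, 4676 and 4477 in DMSO and 3960, 4832 and 5444 in Tan I. Tan I 3 was the highest and Tan I 1 the lowest of the 6 libraries, so the groups overlapped, with a log2 fold change of 0.10 ± 0.15 (SE). Many pseudogenes of GUSB are annotated, and reads that mapped to several places were removed by the authors, so its level is uncertain. GLB1, the beta-galactosidase also used as a stain for senescent cells, had 2084, 2688 and 2352 in DMSO and 2126, 2251 and 2582 in Tan I. Both ends of that range were DMSO libraries, and the log2 fold change was -0.03 ± 0.14, or 0.06 without DMSO 2.

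NEU1 was looked at more closely after its values were seen, as the largest positive difference after FUCA1. Its normalized counts were 4419, 2617 and 5195 in DMSO and 4450, 5537 and 4590 in Tan I. DMSO 2 was low, and the other 5 libraries lay between 4419 and 5537. The log2 fold change of 0.30 had a 95% interval of -0.28 to 0.89 and was 0.01 without DMSO 2. The remaining glycosidases were GLA, an alpha-galactosidase, at 0.22, IDUA, which acts on dermatan and heparan sulfate, at 0.05, HEXA, a beta-hexosaminidase subunit, at 0.05, MAN2B1, an alpha-mannosidase, at -0.00, GAA, which degrades glycogen, at -0.02, and NAGLU, of heparan sulfate breakdown, at -0.02.

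The sulfatases remove sulfate from glycosaminoglycans and sulfatides, and 4 of the 5 were tested. GALNS was the highest at 232 per kb, with normalized counts of 550, 601 and 516 in DMSO and 573, 505 and 523 in Tan I. DMSO 2 was highest and Tan I 2 lowest, the groups overlapped, and the log2 fold change was -0.06 ± 0.12 (SE). IDS, of dermatan and heparan sulfate breakdown, had the largest negative difference and was looked at after its values were seen. Its normalized counts were 122, 78.0 and 103 in DMSO and 130, 54.8 and 49.3 in Tan I, so Tan I 1 was the highest library and Tan I 2 and 3 the lowest. The log2 fold change was -0.49, with a 95% interval of -1.40 to 0.43, on 37 to 133 reads a library, and it was -0.23 without Tan I 3 and -0.92 without Tan I 1. The pseudogene IDSP1, a close copy, lies near IDS on the X chromosome, so the counts of IDS are uncertain. ARSA, the sulfatide sulfatase, had a log2 fold change of 0.08 and ARSB, of dermatan sulfate breakdown, 0.13.

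Among the lipid hydrolases and activators, 2 of the 6 tested were higher and 4 lower, at a median of -0.04 on the log2 scale (1 higher and 5 lower at -0.10 after rescaling to the same total). PSAP had normalized counts of 18388, 24496 and 20355 in DMSO and 17391, 20222 and 23827 in Tan I. The highest library was DMSO 2 and the lowest Tan I 1, the groups overlapped, and the log2 fold change was -0.04 ± 0.18 (SE). SMPD1, the acid sphingomyelinase, had the largest value at 0.21 and PPT1, which removes palmitate from proteins, the lowest at -0.11. ASAH1, the acid ceramidase, lay at 0.00, GM2A, the activator for ganglioside breakdown, at -0.03, and LIPA, the acid lipase for cholesteryl esters and triglycerides, at -0.06.

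The proteases were the role with the most genes on one side, with 8 of 9 tested above 0 at a median of 0.14 (7 of 9 at 0.08 after rescaling to the same total), but none was called and all overlapped between the groups. CTSH had normalized counts of 5869, 8150 and 6635 in DMSO and 5939, 7640 and 9426 in Tan I. CTSB, a cysteine protease, had 4861, 5794 and 5195 in DMSO and 5005, 5782 and 6443 in Tan I. CTSD, the aspartic protease, had 974, 1494 and 1202 in DMSO and 896, 1345 and 1730 in Tan I. For all of these 3 genes replicate 1 was lowest in both groups, DMSO 2 highest among the controls and Tan I 3 highest of all. Their log2 fold changes were 0.14 ± 0.20, 0.12 ± 0.14 and 0.08 ± 0.26 (SE). With 1 library left out in turn they ran from -0.02 to 0.315 for CTSH, from 0.03 to 0.21 for CTSB and from -0.13 to 0.34 for CTSD, each lowest without Tan I 3 and highest without Tan I 1. The other cysteine cathepsins lay at 0.17 (CTSZ), 0.15 (CTSC), 0.15 (CTSS) and 0.04 (CTSL). CTSA, a serine carboxypeptidase that also protects GLB1 and NEU1, lay at 0.18, and TPP1, a tripeptidyl peptidase, was the only protease below 0, at -0.07.

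Of the 7 membrane and lipid transfer genes, 5 were higher and 2 lower at a median of 0.03. After rescaling to the same total 2 were higher and 5 lower at -0.03, where the median of all genes was -0.06. LAMP1, a main glycoprotein of the lysosomal membrane, had normalized counts of 4387, 5254 and 5052 in DMSO and 4588, 5338 and 6005 in Tan I. ATP6AP1 had 4410, 4166 and 4694 in DMSO and 4523, 5040 and 4877 in Tan I. For both genes 1 or more of the Tan I libraries lay inside the DMSO range, and the log2 fold changes were 0.11 ± 0.14 and 0.12 ± 0.11 (SE). SCARB2, the receptor that carries glucocerebrosidase to the lysosome, had the lowest value at -0.23, with a 95% interval of -0.50 to 0.05, and LAMP2, the partner of LAMP1 and a factor of chaperone-mediated autophagy, lay at -0.04. NPC1 and NPC2, which hand cholesterol out of the lysosome, both lay at 0.03, and MCOLN1, a calcium channel of the lysosomal membrane, at 0.01.

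The lysosomal genes varied between libraries of the same treatment in a shared order. In 23 of the 39 genes (59%) DMSO 2 was the highest DMSO library and Tan I 3 the highest Tan I library, as against 35% of all genes tested. The reverse, with DMSO 2 and Tan I 3 both lowest in their group, held for 5 lysosomal genes (12.8%) and for 32.1% of all genes. In 22 genes (56.4%) replicate 1 was the lowest library in both groups, as against 29.5% of all genes. These are also the libraries at the ends of the first principal component, where DMSO 2 and Tan I 3 had the highest scores and DMSO 1 and Tan I 1 the lowest. The genes share the libraries, so these counts are a description, and what sets the libraries apart was not tested.

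**Figure D4:**
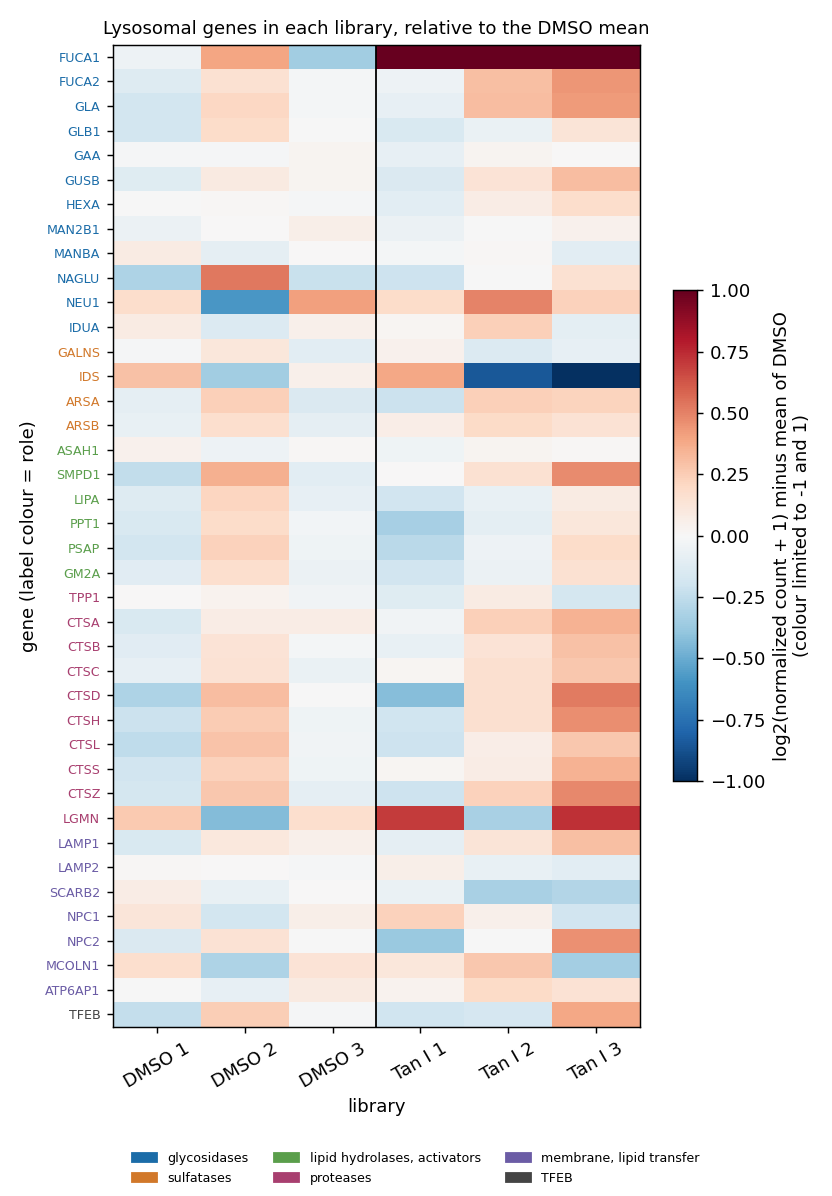
Log2(normalized count + 1) of the 40 lysosomal genes (rows) in the 6 libraries (columns), minus the DMSO mean of the gene, with the colour limited to -1 and 1. FUCA1 is the 1 row with a full block in Tan I, and many rows are raised in DMSO 2 and in Tan I 3.

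The surroundings of these genes in the pathway were described by 5 further lists, with 82 of 89 genes tested, of which 44 were higher and 38 lower at a median of 0.03 (39 higher and 43 lower at -0.03 after rescaling to the same total). That rescaling moved the median of all genes to -0.06, so the rescaled values below include this shift. Among 16 V-ATPase subunits 13 were higher and 3 lower (median 0.15, and 0.09 after rescaling to the same total), and 0 were called. Of 8 tested genes of mannose 6-phosphate tagging and sorting 1 was higher and 7 lower (median -0.09, and -0.15 with all 8 lower after rescaling), and 0 were called. Other hydrolases (20 tested, 8 higher and 12 lower, median -0.04, and -0.10 after rescaling) and other membrane proteins (19 tested, 10 higher and 9 lower, median 0.09, and 0.03 after rescaling) had 0 called as well. The 19 genes of the TFE factors and of mTORC1 control at the lysosome, 12 higher and 7 lower (median 0.08, and 0.02 after rescaling), held the only call by the unadjusted rule, FNIP2, a partner of folliculin in this control. Its normalized counts were 88.6, 76.1 and 81.3 in DMSO and 68.4, 55.9 and 38.7 in Tan I, without overlap, with a log2 fold change of -0.62 ± 0.26 (SE) and an adjusted p = 0.999 in limma. By the unadjusted rule 0 genes of these lists were called by edgeR or without DMSO 1, DMSO 3 or Tan I 2, and 10 without Tan I 1 (12.2%, beside 8.86% of all genes there). The single call among 82 is 1.22%, beside 2.42% of all genes. Over the 82 genes, 3 lay wholly higher and 3 wholly lower in Tan I, 3.66% each beside 3.92% and 3.97% of all genes.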

How the data were processed

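RNA-seq of NB4 cells gave 3 DMSO and 3 Tan I libraries, grouped by the sample labels. Per the methods, alignment of read pairs to GRCh38 used STAR, multi-mapping reads were dropped and featureCounts gave the reads of each gene. Versions, annotation and strand setting are not given in the sources used here. It is therefore not known whether reads in shared bases were told apart for the 19 lysosomal genes with a gene on the opposite strand. Overlaps were taken over whole gene spans, so they need not fall in exons. An overlapping gene on the same strand is annotated for 12, some of them also among the 19, and 16 overlap no annotated gene. The signal values deposited by the authors are normalized counts, in which the reads of a gene are divided by the size factor of the library. The table also holds the authors' own comparison (fold change, standard error, test statistic and p-values), which was not used. The extraction label speaks of embryos, whereas all other labels name NB4.

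The lysosomal genes and the other lists were chosen with earlier results of these data known. Genes with a mean of at least 10 were tested by limma 3.58.1 in R 4.3.3 (eBayes with trend) on log2(normalized count + 1), with Benjamini-Hochberg adjustment over 16887 genes. Within 0.01, 100% of the values came out as whole reads when divided by the value of 1 read in their library, and these reads were tested by edgeR 4.0.16 and DESeq2 1.42.0 as alternatives. The further alternatives were pseudocounts of 0.1 and 10, no filter, a minimum mean of 50, quantiles made equal, libraries rescaled to the same total, no trend, a replicate block, the first principal component as a covariate and each library left out. Values per library were given for lysosomal genes called or not overlapping, the highest per kb in each role, and TFEB, CTSB, CTSD, LAMP1 and GLB1. From the other lists they were given for the called gene, FNIP2. The remaining lysosomal genes were given by fold change. Outside this rule, FUCA2, NEU1, IDS, TFE3 and the reads of LGMN were chosen after their values were seen. Genes outside the 42 were otherwise named only where called or as markers. Lengths and positions came from GENCODE 44 on GRCh38, promoters from RefSeq. The limma, edgeR and DESeq2 steps were tested on simulated data. No 2 libraries were copies: the closest pair differed by a chi-square of 5.89 per gene.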

Additional observations from a re-analysis of the deposited data

How the results depend on the processing

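FUCA1 was called by the unadjusted rule in 17 of 17 alternatives, with log2 fold changes of 1.29 to 1.75, and by the adjusted rule in 2 of them. The alternatives reuse the same libraries and the gene was chosen with this contrast known, so this count is only a description. FUCA1 passed the minimum mean of 50 through its Tan I libraries, with means of 26.7 in DMSO and 79.9 in Tan I. With adjusted p-values, 0 genes were called in the main test, 16 by DESeq2 (1 lysosomal, FUCA1) and 194 when the first principal component entered as a covariate (1 lysosomal, FUCA1). With that covariate the unadjusted rule called 1496 of the 16887 genes in place of 408. It called 2 of the 39 lysosomal genes (NEU1 added) in place of 1, and 3 genes of the other lists in place of 1. Leaving out 1 library gave 160 genes (without Tan I 2) to 1496 (without Tan I 1), with 180 without DMSO 1, 201 without DMSO 3 and 271 without Tan I 3. It gave 1 to 5 lysosomal genes, 5 without Tan I 1 (FUCA1, FUCA2, GLA, IDS and SCARB2), where 8.86% of all genes were called. Of the other lists it gave 0 to 10 genes, 10 without Tan I 1 and 0 without DMSO 1, DMSO 3 or Tan I 2. In the other lists 0 genes were called with a mean of at least 50, with rescaling to the same total, and by edgeR.

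Rescaling to the same total shifted the median of all genes to -0.06, that of the other lists from 0.0339 to -0.0256 and that of the lysosomal genes from 0.04 to -0.01, with 17 of 39 higher in place of 25; without Tan I 3 the median was -0.00, also with 17 higher, and without Tan I 1 it was 0.13, with 31 higher. The direction of the median of the lysosomal genes is therefore not settled by these libraries. The same-numbered libraries correlated at 0.751, -0.0881 and -0.451 in their deviations from the group means, so the numbers were not taken to pair the samples. With the replicate number as a block, 348 genes and 1 lysosomal gene were called by the unadjusted rule and 0 by the adjusted rule. At 89 and 212 reads, FUCA1 is measured at low depth. The causes of these shifts were not tested.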
